A study of Mus musculus with 24 samples.

Results

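The genes described here are 31 that mark microglia or their activation: surface receptors and transcription factors of the resting cell, the chains of complement C1q, receptors and adaptors for sensing and phagocytosis, lysosomal and activation genes, and factors shared with other myeloid cells. They were listed by name, with earlier results of these data known. A probe set carrying the symbol was found for 29 of the 31, of 19505 genes with a symbol on the array, and each had 1 probe set; Cd68 and Ctsd were not analysed here. The mice were male C57Bl/6j, 8 to 10 weeks old, with no transgene named in the labels. In MCAO mice the middle cerebral artery was occluded by the intraluminal route for 90 min (middle cerebral artery occlusion, a stroke model) and reperfused for 30 min, and in sham mice the control surgery was done. The brain was perfused with saline and taken 2 h after the onset of ischaemia, and the operated (ipsilateral) and opposite (contralateral) hemispheres were put on separate whole-transcript arrays, 24 arrays from 8 MCAO and 4 sham mice.

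Microglia are the resident macrophages of the brain. They depend on signals through Csf1r, survey the tissue with processes steered by nucleotide receptors such as P2ry12, and keep their identity through transcription factors that include Sall1, Spi1 and Irf8. On injury they typically lose part of this resting signature over time while complement, phagocytic and lysosomal genes and inflammatory mediators increase, and blood-borne cells can add their own myeloid transcripts.

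Both arrays of MCAO mouse 3 and both of sham mouse 1 stood apart from the rest. Their median correlation with the other arrays was 0.33 to 0.551, against 0.981 to 0.989 for the other 20, and the mean signal of the array's positive controls was 4.695 to 5.01 log2 units, against 6.51 to 6.745. Background, taken as the 95th percentile of the negative controls of an array, was 7.41 to 7.607 log2 units on these 4 and 5.168 to 5.739 on the other 20. At most 1 of the 29 microglial genes exceeded it on any of the 4 arrays, Spi1 on both ipsilateral ones, while 12 to 20 did on each of the others. Values below are from the 20 arrays, 7 MCAO and 3 sham mice with both hemispheres, and the same results with all 24 arrays are given where they are summarised. Each mouse is a separate animal, and the small number of sham mice limits the precision of every comparison with them.

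In these hemispheres none of the microglial genes passed the test between any of the conditions compared. In limma, 0 of 29 passed an adjusted p of 0.05 between the ipsilateral and contralateral hemispheres of MCAO mice, where 0.135% of all 22206 probe sets did (0.126% higher and 0.00901% lower), and 0 of 29 between MCAO and sham ipsilateral hemispheres, where 0.149% did (0.126% higher and 0.0225% lower). The same count was 0 of 29, with 0% of all probe sets, between the hemispheres of sham mice, between MCAO and sham contralateral hemispheres, and for the difference between the MCAO and sham side differences. At an unadjusted p under 0.05 the counts were 2 of 29 between MCAO hemispheres and 1 of 29 between sham hemispheres, against 7.1% and 5.49% of all probe sets. In the other 3 comparisons they were 0 of 29, against 7.48% for the ipsilateral hemispheres, 4.59% for the contralateral hemispheres and 5.91% for the difference of side differences. So few probe sets passed anywhere that a count of 0 of 29 is close to the background share, and the intervals of the genes that the array measured well say more. For the 11 genes above background on all 20 arrays, 11 of 11 intervals (95%) of the side difference in MCAO mice lay within a 1.5-fold change in either direction, that is within 0.58 log2 units of 0. Those of the other 18 also lay within it. All of these intervals, those of the 11 included, bound the signal of the probe set. They do not bound a change in RNA where that signal is at background. Where it is little above background they may understate such a change. The array measures RNA of a whole hemisphere, so fewer cells of a type and less RNA per cell cannot be told apart.

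The genes also differed in how well the array measured them. Of the 29, 11 were above background on all 20 arrays (P2ry12, Fcrls, Olfml3, Csf1r, Selplg, C1qb, Fcgr3, Mertk, Ctss, Laptm5 and Spi1), 9 on some and 9 on none. This division depends on the level taken as background: with the 99th percentile of the negative controls, 0 of 29 were above it on all 20 arrays. Those on none were P2ry6, Gpr34, Sall1, Trem2, Itgb2, Aif1, Irf8, Ptprc and Cd53. For these 9 a small difference says little about the RNA, because much of the signal is what a probe gives without its target. Markers of neurons, astrocytes and oligodendrocytes were well measured, with 11 of 11, 10 of 10 and 9 of 9 genes above background on all 20 arrays. Of 9 endothelial markers, 5 were above background on all 20 arrays and 1 on none.

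**Figure D1:**
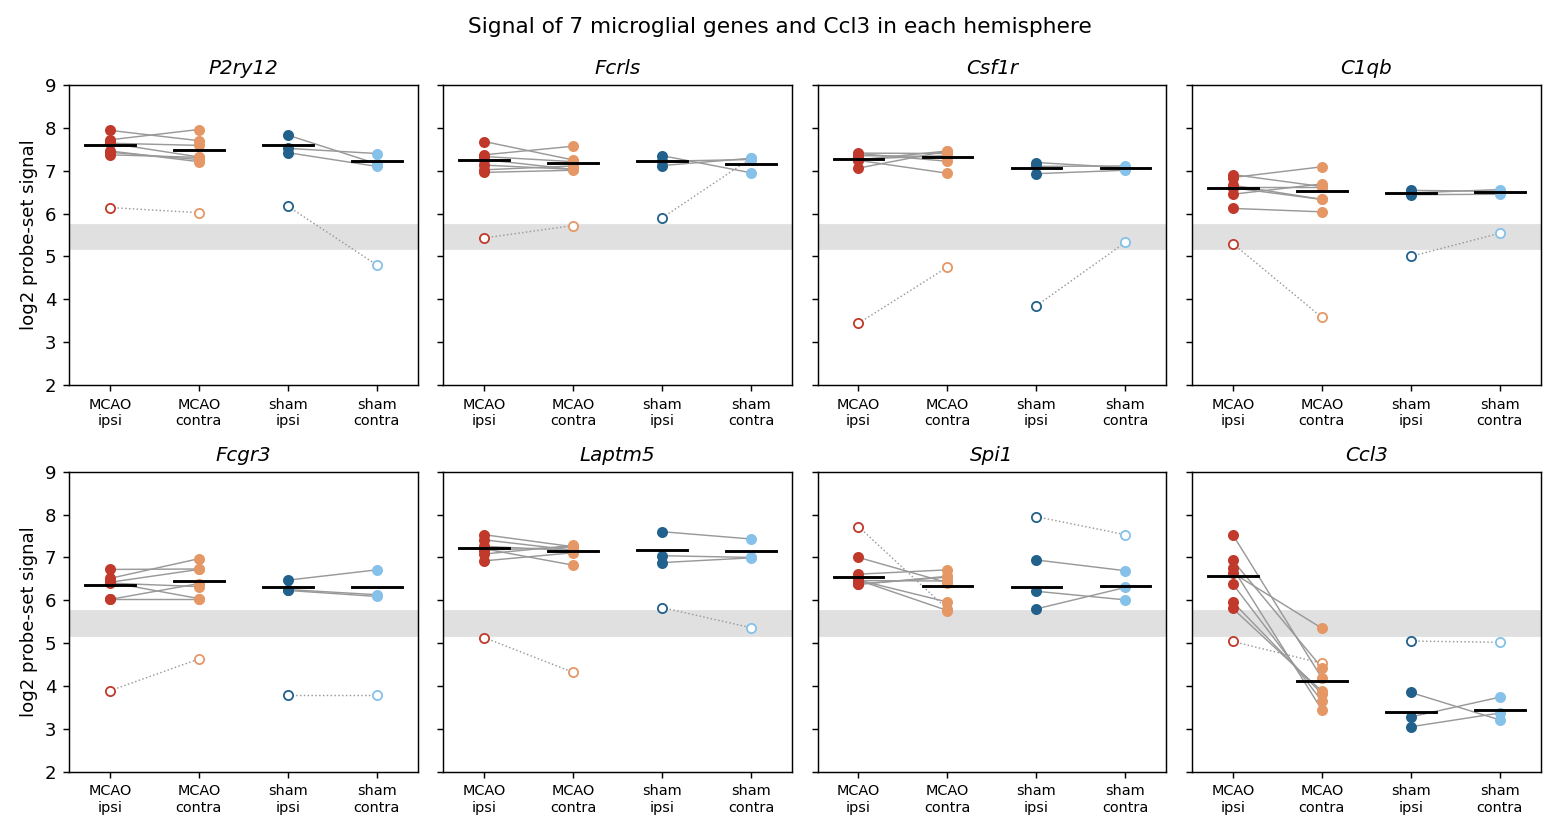
Log2 probe-set signal (vertical axis) of P2ry12, Fcrls, Csf1r, C1qb, Fcgr3, Laptm5, Spi1 and, for scale, the chemokine gene Ccl3, in the ipsilateral (ipsi) and contralateral (contra) hemispheres of MCAO and sham mice. Each point is 1 array, grey lines join the hemispheres of a mouse, black bars are means of the filled points (7 MCAO and 3 sham mice), hollow points with dotted lines are MCAO mouse 3 and sham mouse 1, and the grey band is the range of background, 5.168 to 5.739. The filled points of the 7 microglial genes lie above the band, and those of MCAO and sham mice overlap on each side, whereas Ccl3 lies above it in MCAO ipsilateral hemispheres alone.

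Promoter sequence was looked up because PU.1, the product of Spi1, is the factor that much of the myeloid programme is known to rest on, and because AP-1 and NF-kappaB are known to drive rapid inflammatory genes. RefSeq (GRCm38.p6) gave promoters, 250 bases before to 50 after a start, for 20 of the 29 genes, 25 promoters in all. The PU.1 core GAGGAAG, read on both strands, was in 10 of the 25 (40%), against 13.6% of all 32851 promoters of the same length. It was found in 9 genes: C1qc, Cd53, Ctss, Fcgr3, Fcrls, Itgam, Laptm5, P2ry13 and Trem2. The AP-1 motif TGANTCA was in 1 promoter (4%, Trem2), against 7.81% of all, and the kappaB motif (GGGNN followed directly by TTNCC) in both of the promoters of Fcgr3, against 4.79%. The promoters of Fcgr3 overlap and hold the same sites, so the kappaB motif is in 1 of the 20 genes. A match describes the letters of the window and does not show that a factor binds. The 160 bases before the start are printed 5′ to 3′ on the strand of the gene for 4 well-measured genes, and capitals mark the matches. Fcrls and Laptm5 have 1 PU.1 match each (GAGGAAG, or CTTCCTC where it lies on the other strand), Fcgr3 has a PU.1 match and a pair of overlapping kappaB matches, and P2ry12, shown for contrast, has none of the 3 motifs. The windows are Fcrls at chr3:87263525-87263684 on the minus strand, Laptm5 at chr4:130913156-130913315 on the plus strand, Fcgr3 at chr1:171059404-171059563 on the minus strand and P2ry12 at chr3:59262986-59263145 on the minus strand.
Fcrls: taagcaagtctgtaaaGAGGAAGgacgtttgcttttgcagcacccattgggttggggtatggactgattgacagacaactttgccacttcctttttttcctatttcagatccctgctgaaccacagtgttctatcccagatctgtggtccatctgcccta
Laptm5: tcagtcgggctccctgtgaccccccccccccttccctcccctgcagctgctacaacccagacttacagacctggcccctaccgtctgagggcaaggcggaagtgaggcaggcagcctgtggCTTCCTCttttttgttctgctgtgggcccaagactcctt
Fcgr3: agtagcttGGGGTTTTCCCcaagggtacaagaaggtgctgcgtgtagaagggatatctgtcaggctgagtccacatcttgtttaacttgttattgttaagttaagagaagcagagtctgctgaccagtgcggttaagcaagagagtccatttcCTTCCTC
P2ry12: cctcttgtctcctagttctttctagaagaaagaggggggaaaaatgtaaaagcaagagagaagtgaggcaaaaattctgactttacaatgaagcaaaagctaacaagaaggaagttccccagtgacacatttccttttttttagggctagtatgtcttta

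Among the 12 genes of the homeostatic identity list, 0 rose and 0 fell in any comparison in limma, and 5 were above background on every array. Their median log2 difference between the hemispheres of MCAO mice was 0.08 (range -0.04 to 0.23), beside -0.0048 over all probe sets tested. P2ry12, the ADP receptor that steers microglial processes, had a log2 signal of 7.37, 7.64 and 7.94 (lowest, median and highest of 7 mice) in MCAO ipsilateral and 7.21, 7.32 and 7.96 in MCAO contralateral hemispheres. In sham mice 2, 3 and 4 it was 7.52, 7.42 and 7.83 ipsilaterally and 7.4, 7.1 and 7.16 contralaterally. The 2 hemispheres overlapped in MCAO mice, and MCAO and sham values overlapped on each side. The difference between hemispheres was 0.12 ± 0.09 (SE, limma) in MCAO mice, higher ipsilaterally in 6 of 7, and 0.37 ± 0.14 in sham mice, higher in 3 of 3 with an unadjusted p of 0.0209 and a limma adjusted p of 0.84. Over all probe sets, 11.5% were higher ipsilaterally in 3 of 3 sham mice. The difference between these was -0.25 (95% interval -0.61 to 0.11, limma adjusted p = 0.9), and between MCAO and sham mice on the ipsilateral side P2ry12 differed by 0.01 (-0.31 to 0.32). P2ry12 lies next to P2ry13, a related nucleotide receptor, on chromosome 3, but P2ry13 was above background on 2 of 20 arrays. P2ry13 differed by 0.11 (-0.2 to 0.43) between MCAO hemispheres.

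Sall1 and Cx3cr1 were the 2 genes of the 29 that were higher ipsilaterally in 7 of 7 MCAO mice, a pattern seen in 1.22% of all probe sets. In MCAO mouse 3, whose arrays were left out, the side difference of Sall1 was 0.48 and that of Cx3cr1 -1.03. Sall1, a transcription factor that maintains microglial identity, was 4.47, 4.75 and 4.86 (lowest, median, highest) in the ipsilateral and 4.36, 4.48 and 4.74 in the contralateral hemisphere. These values are below background on every array, and the difference of 0.23 ± 0.08 did not pass (limma unadjusted p = 0.0159, adjusted p = 0.57). In sham mice 2, 3 and 4 the ipsilateral values of Sall1 were 4.73, 4.7 and 4.53 and the contralateral ones 4.27, 4.74 and 4.19, a difference of 0.25 ± 0.13. The side differences of Sall1 in the 2 surgery groups lay close together, with -0.03 between them (-0.35 to 0.3).

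Cx3cr1, the receptor for the neuronal chemokine fractalkine, was 4.89, 5.22 and 5.48 ipsilaterally and 4.8, 4.96 and 5.38 contralaterally in MCAO mice, above background on 4 of 20 arrays. In sham mice it was 4.95, 5.03 and 4.95 ipsilaterally and 5, 4.95 and 4.7 contralaterally. The MCAO groups overlapped, and the side difference of 0.19 ± 0.08 did not pass (unadjusted p = 0.0313, limma adjusted p = 0.66). The single mice ranged from 0.08 to 0.51, and the highest value came from MCAO mouse 2, with 0.26 the next. With all 24 arrays the side difference of Cx3cr1 in MCAO mice was 0.04 ± 0.15. In sham mice the side difference of Cx3cr1 was 0.09 ± 0.12, and the difference between surgery groups was 0.1 (-0.22 to 0.42).

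Csf1r, the receptor for the survival factors Csf1 and Il34, was 7.06, 7.27 and 7.41 in MCAO ipsilateral and 6.94, 7.35 and 7.46 in MCAO contralateral hemispheres. The sham values were 6.93, 7.1 and 7.19 ipsilaterally and 7.01, 7.11 and 7.07 contralaterally, toward the low end of the MCAO values but overlapping them. Csf1r differed by -0.02 ± 0.09 between MCAO hemispheres, by 0.21 (-0.05 to 0.47) between MCAO and sham ipsilateral and by 0.25 (-0.04 to 0.53) between MCAO and sham contralateral hemispheres. Fcrls, an Fc-receptor-like protein found on microglia, had means of 7.25 ± 0.24 (SD, n = 7), 7.17 ± 0.2 (n = 7), 7.23 ± 0.12 (n = 3) and 7.17 ± 0.19 (n = 3) in MCAO ipsilateral, MCAO contralateral, sham ipsilateral and sham contralateral hemispheres. Its differences were 0.08 (-0.13 to 0.29) between MCAO hemispheres and 0.02 (-0.31 to 0.35) between MCAO and sham mice ipsilaterally.

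Selplg, which encodes the selectin ligand PSGL-1, differed by 0.07 (-0.1 to 0.24) between MCAO hemispheres and by 0.1 (-0.27 to 0.47) between MCAO and sham mice ipsilaterally. Its neighbour on chromosome 5 is Tmem119, a microglial membrane protein, which was above background on 5 of 20 arrays and differed by 0.05 (-0.15 to 0.26) between MCAO hemispheres. Olfml3, a secreted protein, was 5.93 to 6.84 in MCAO ipsilateral and 6.12 to 6.52 in MCAO contralateral hemispheres. In sham mice Olfml3 was 6.27, 6.01 and 6.38 ipsilaterally and 5.8, 5.96 and 6.28 contralaterally, so the groups overlapped. Its largest difference was 0.27 (-0.04 to 0.57), between MCAO and sham contralateral hemispheres. Siglech, a sialic-acid-binding lectin, was above background on 16 of 20 arrays and differed by -0.02 (-0.23 to 0.18) between MCAO hemispheres.

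Gpr34, a receptor for lysophosphatidylserine, had the largest difference of the 29 between MCAO and sham mice, 0.48 (-0.01 to 0.96) ipsilaterally and 0.37 (-0.12 to 0.86) contralaterally, with limma adjusted p of 0.67 and 1. Its signal was 4.38, 4.65 and 5.05 in MCAO ipsilateral and 3.85, 4.61 and 4.88 in MCAO contralateral hemispheres, against 3.53, 4.39 and 4.77 ipsilaterally and 3.61, 4.53 and 4.22 contralaterally in sham mice 2, 3 and 4. Sham mouse 2 was lowest in both hemispheres, the groups overlapped, and no array was above background. P2ry6, a receptor for UDP that triggers phagocytosis, was also below background throughout and had the lowest ipsilateral difference between MCAO and sham mice, -0.29 (-0.71 to 0.13). Its values were 3.8 to 4.56 in MCAO ipsilateral hemispheres and 4.24, 4.89 and 4.28 in sham ones, and 3.85 to 4.4 in MCAO contralateral hemispheres and 4.16, 4.49 and 4.23 in sham ones.

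C1qa, C1qb and C1qc encode the 3 chains of C1q, which starts the classical complement pathway and in brain comes largely from microglia, and the genes lie next to each other on chromosome 4. Of the 3, 0 rose and 0 fell in any comparison in limma, with a median of 0.07 (-0.04 to 0.1) between MCAO hemispheres. C1qb, above background on all arrays, was 6.12, 6.62 and 6.91 in MCAO ipsilateral and 6.04, 6.62 and 7.09 in MCAO contralateral hemispheres. In sham mice it was 6.48, 6.54 and 6.44 ipsilaterally and 6.56, 6.52 and 6.45 contralaterally, inside the MCAO range. It differed by 0.07 (-0.13 to 0.26) between MCAO hemispheres and by 0.11 (-0.22 to 0.45) between MCAO and sham ipsilateral hemispheres.

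C1qa was above background on 19 of 20 arrays. It was 6.2, 6.35 and 6.54 ipsilaterally and 6, 6.26 and 6.47 contralaterally in MCAO mice, and 5.39, 6.53 and 6.48 ipsilaterally and 6.09, 6.07 and 5.83 contralaterally in sham mice. The low value of 5.39 was that of sham mouse 2, whose side difference of -0.7 stood against 0.46 and 0.65 in the other sham mice. C1qa differed by 0.1 (-0.2 to 0.41) between MCAO hemispheres and by 0.26 (-0.03 to 0.55) between MCAO and sham contralateral hemispheres. C1qc, above background on 8 of 20 arrays, had means of 5.29 ± 0.26 (SD, n = 7) and 5.33 ± 0.3 (n = 7) in MCAO and 5.52 ± 0.11 (n = 3) and 5.31 ± 0.55 (n = 3) in sham ipsilateral and contralateral hemispheres. The difference of C1qc between ipsilateral hemispheres was -0.22 (-0.56 to 0.12), the opposite sign to C1qa at 0.23 (-0.21 to 0.66), and neither passed.

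The receptors and adaptors for sensing and phagocytosis numbered 7, of which 0 rose and 0 fell in any comparison in limma, with a median of 0.03 (-0.1 to 0.09) between MCAO hemispheres. Fcgr3, an activating receptor for immunoglobulin G, was 6.02, 6.42 and 6.72 in MCAO ipsilateral and 6.04, 6.39 and 6.97 in MCAO contralateral hemispheres. In sham mice it was 6.47, 6.23 and 6.25 ipsilaterally and 6.71, 6.09 and 6.13 contralaterally, so all groups overlapped. It had the lowest side difference of the 29 in MCAO mice, -0.1 (-0.33 to 0.13), and was higher ipsilaterally in 3 of 7. Mertk, the receptor kinase through which apoptotic cells are engulfed, was 6.22, 6.54 and 7.14 ipsilaterally and 6.42, 6.64 and 6.89 contralaterally in MCAO mice, and 6.71, 6.45, 6.39 and 6.61, 6.54, 6.45 in sham mice. Mertk differed by -0.07 (-0.25 to 0.11) and was higher ipsilaterally in 1 of 7 MCAO mice.

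Itgam and Itgb2 encode the 2 chains of complement receptor 3. Itgam was above background on 19 of 20 arrays and differed by 0.01 (-0.19 to 0.22) between MCAO hemispheres. Itgb2 was above background on 0 arrays, with means of 3.79 ± 0.2 (SD, n = 7), 3.76 ± 0.23 (n = 7), 3.56 ± 0.65 (n = 3) and 3.74 ± 0.32 (n = 3) in MCAO ipsilateral, MCAO contralateral, sham ipsilateral and sham contralateral hemispheres. Trem2, a lipid-sensing receptor, and its signalling adaptor Tyrobp differed by 0.04 (-0.2 to 0.28) and 0.07 (-0.26 to 0.4) between MCAO hemispheres, but were above background on 0 and 1 of 20 arrays. Fcer1g, the adaptor that Fc receptors signal through, was above background on 4 of 20 arrays and had means of 5.03 ± 0.36 (n = 7), 4.93 ± 0.49 (n = 7), 4.87 ± 0.17 (n = 3) and 5.05 ± 0.1 (n = 3) in the same order. Its side difference was 0.09 ± 0.11 in MCAO and -0.19 ± 0.16 in sham mice, lower ipsilaterally in 3 of 3. Over all probe sets, 12.5% were lower ipsilaterally in 3 of 3 sham mice. The difference between the MCAO and sham side differences of Fcer1g was 0.28 (-0.14 to 0.7).

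Of the 3 measured lysosomal and activation genes, 0 rose and 0 fell in any comparison in limma, with a median of 0.08 (0.03 to 0.08) between MCAO hemispheres. Ctss, the lysosomal protease cathepsin S, was 6.84, 7.07 and 7.2 ipsilaterally and 6.75, 6.96 and 7.07 contralaterally in MCAO mice. In sham mice it was 6.97, 7.31 and 7.33 ipsilaterally and 6.83, 7.18 and 7.18 contralaterally. Sham mouse 2 lay inside the MCAO values and sham mice 3 and 4 above them in both hemispheres. Ctss differed by 0.08 (-0.09 to 0.24) between MCAO hemispheres and by -0.18 (-0.47 to 0.12) between MCAO and sham ipsilateral hemispheres.

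Laptm5, a lysosomal membrane protein of blood-derived cells and microglia, was 6.92, 7.2 and 7.53 in MCAO ipsilateral and 6.82, 7.17 and 7.28 in MCAO contralateral hemispheres. In sham mice it was 7.6, 7.04 and 6.88 ipsilaterally and 7.43, 7 and 6.99 contralaterally. Sham mouse 2 was above every MCAO mouse in each hemisphere, and the other sham mice lay inside the MCAO values or just below them. Laptm5 differed by 0.08 (-0.12 to 0.28) between MCAO hemispheres and by 0.05 (-0.31 to 0.41) between MCAO and sham mice ipsilaterally. Aif1, whose protein IBA1 is the usual histological stain for microglia, was above background on 0 arrays, at 3.42 to 4.49 in MCAO ipsilateral and 3.33 to 4.91 in MCAO contralateral hemispheres and at 3.97, 3.57, 4.61 and 3.71, 3.96, 4.46 in sham mice. Aif1 differed by 0.03 (-0.31 to 0.36) between MCAO hemispheres.

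The 4 myeloid and leukocyte genes had the highest median of the role groups between MCAO hemispheres, 0.18 (0.07 to 0.23), but 0 rose and 0 fell in any comparison in limma, and only Spi1 was above background. Spi1, which encodes PU.1, was 6.37, 6.47 and 7 in MCAO ipsilateral and 5.76, 6.45 and 6.71 in MCAO contralateral hemispheres. In sham mice it was 6.94, 5.8 and 6.21 ipsilaterally and 6.69, 6.3 and 6.01 contralaterally, and all groups overlapped. The side difference of Spi1 in MCAO mice was 0.2 ± 0.14 (-0.1 to 0.49), and 3 of the 7 mice had 0.51, 0.59 and 0.72 while the other 4 had -0.19 to 0.01. Cd53, a leukocyte tetraspanin, had means of 4.53 ± 0.16 (SD, n = 7), 4.31 ± 0.37 (n = 7), 4.25 ± 0.36 (n = 3) and 4.34 ± 0.1 (n = 3) in MCAO ipsilateral, MCAO contralateral, sham ipsilateral and sham contralateral hemispheres. It differed by 0.23 (-0.09 to 0.54) between MCAO hemispheres and was higher ipsilaterally in 6 of 7 mice.

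Irf8, a transcription factor of the myeloid lineage, had means of 3.59 ± 0.33 (SD, n = 7), 3.42 ± 0.36 (n = 7), 3.63 ± 0.62 (n = 3) and 3.58 ± 0.25 (n = 3) in the same 4 groups. Ptprc, which encodes the leukocyte surface phosphatase CD45, had means of 3.69 ± 0.4, 3.62 ± 0.43, 3.53 ± 0.35 and 3.34 ± 0.15 with the same numbers of mice. Both were below background on every array. They differed by 0.16 (-0.12 to 0.44) and 0.07 (-0.3 to 0.44) between MCAO hemispheres, and single mice ranged from -0.63 to 1.01 for Ptprc.

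**Figure D2:**
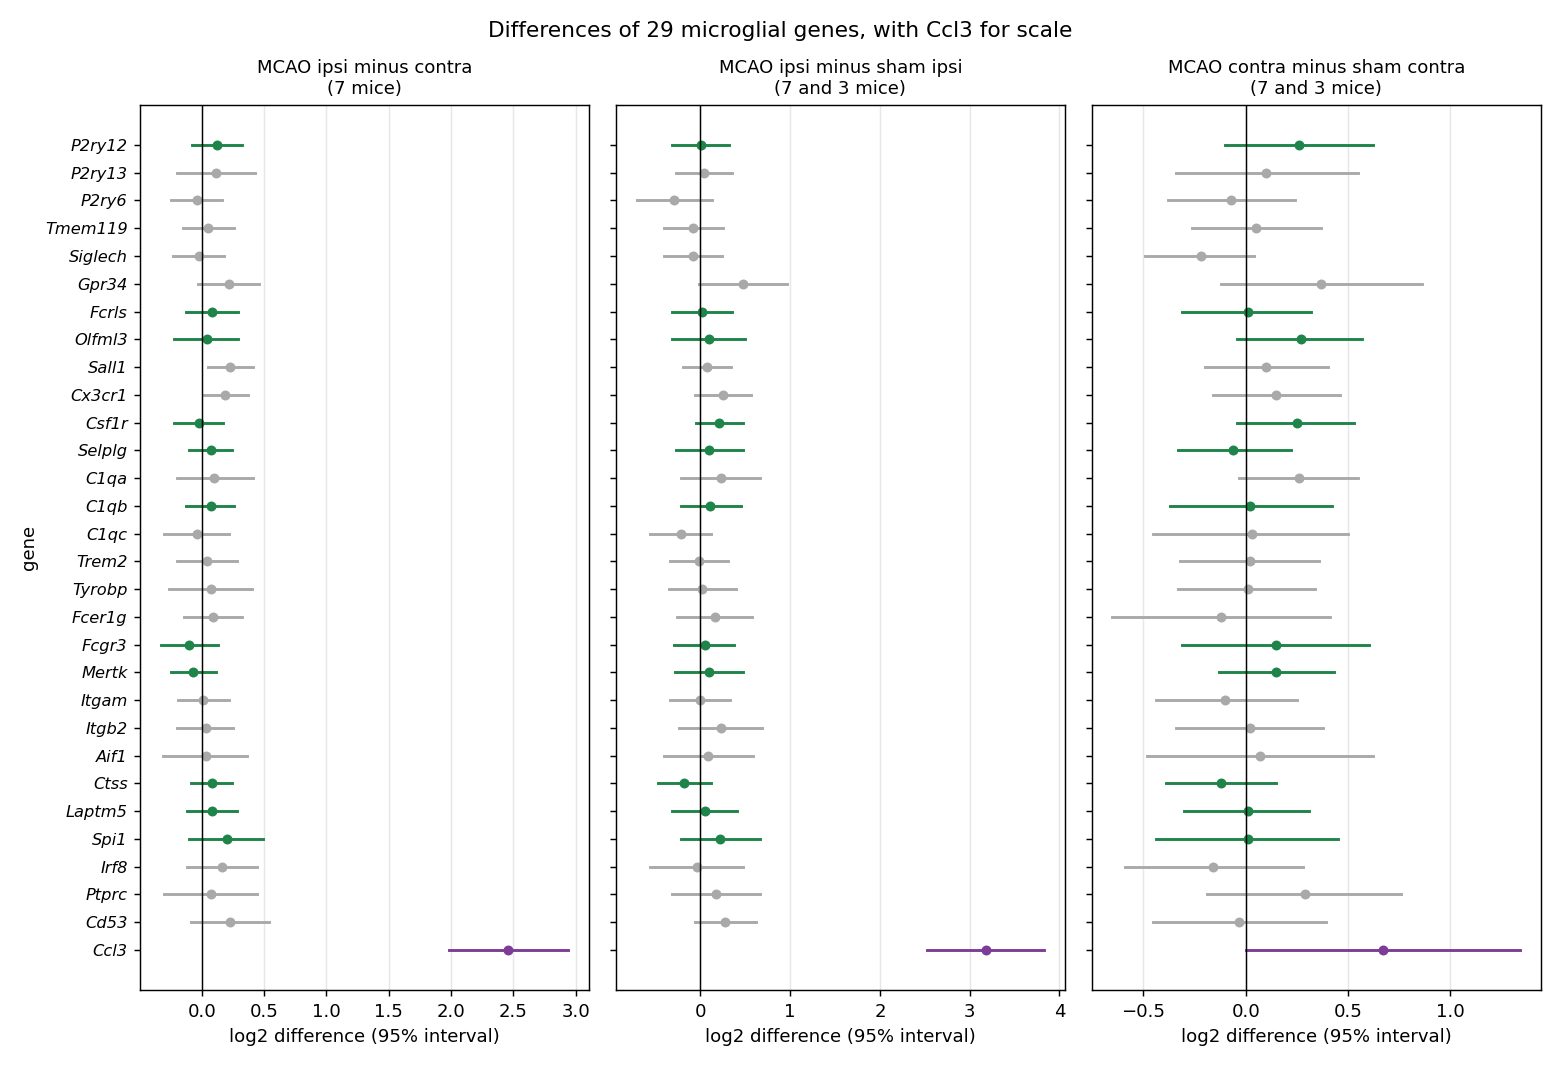
Log2 differences of the 29 microglial genes and Ccl3 (rows) with 95% intervals (horizontal axis, whose range differs between panels) between MCAO hemispheres (7 mice), between MCAO and sham ipsilateral hemispheres and between MCAO and sham contralateral hemispheres (7 and 3 mice). Green marks the 11 genes above background on all 20 arrays, grey the other 18 and purple Ccl3. Microglial differences run from -0.1 to 0.23, -0.29 to 0.48 and -0.22 to 0.37 in the 3 panels. The signal of Ccl3 differs by 2.46, 3.18 and 0.67. Ccl3 was above background in MCAO ipsilateral hemispheres alone, so the value of 0.67 compares 2 groups below background.

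Across the 29 genes the side difference in MCAO mice had a median of 0.07 and was above 0 in 23, beside 48.4% of all probe sets. In sham mice the median was 0.06 with 20 above 0, beside 48.9% of all probe sets, but with all 24 arrays the sham median was 0 with 14 of 29 above 0. Side differences of the 29 ran from -0.19 to 0.37 in sham mice and from -0.1 to 0.23 in MCAO mice. The sham values rest on 3 mice (SE 0.12 to 0.26) and the MCAO values on 7 (SE 0.08 to 0.17). The 2 ranges therefore cannot be compared directly. The difference between the surgery groups had a median of 0.01 (-0.25 to 0.31), and an exact two-sided permutation test over the 120 regroupings of the 10 mice gave 0 of 29 genes with an unadjusted p under 0.05, where 0.00833 is the smallest p possible. Over all probe sets the share under 0.05 was 4.94%, so 0 of 29 is near the background. With all 24 arrays 2 of 29 genes, P2ry12 and Itgb2, were under 0.05, against 5.61% of all probe sets.

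Between MCAO and sham ipsilateral hemispheres the median was 0.07 with 21 of 29 above 0 (51.9% of all probe sets), and between contralateral hemispheres 0.02 with 21 above 0 (52.5%). In 0 of 29 genes did the MCAO and sham values fail to overlap, and the same held for the side differences of single mice, where 1.07% of all probe sets had all MCAO mice higher and 0.95% all lower. Over all probe sets, non-overlap was seen ipsilaterally in 1.4% with MCAO higher and 0.986% with MCAO lower, and contralaterally in 0.779% and 0.599%. The intervals of these comparisons were wider, since only 3 sham mice enter them. They lay within 1.5-fold for 21 and 22 of the 29 genes and, of the 11 above background on all arrays, for 10 and 9. With all 24 arrays 0 of 29 genes passed in any of the 5 comparisons, against 0.0856% of all probe sets between MCAO hemispheres, 0.0045% between ipsilateral hemispheres and 0% in the other 3. The medians were then 0.04 between MCAO hemispheres, 0 between sham hemispheres, 0.04 for the difference of these, 0.15 between ipsilateral and 0.06 between contralateral hemispheres.

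**Figure D3:**
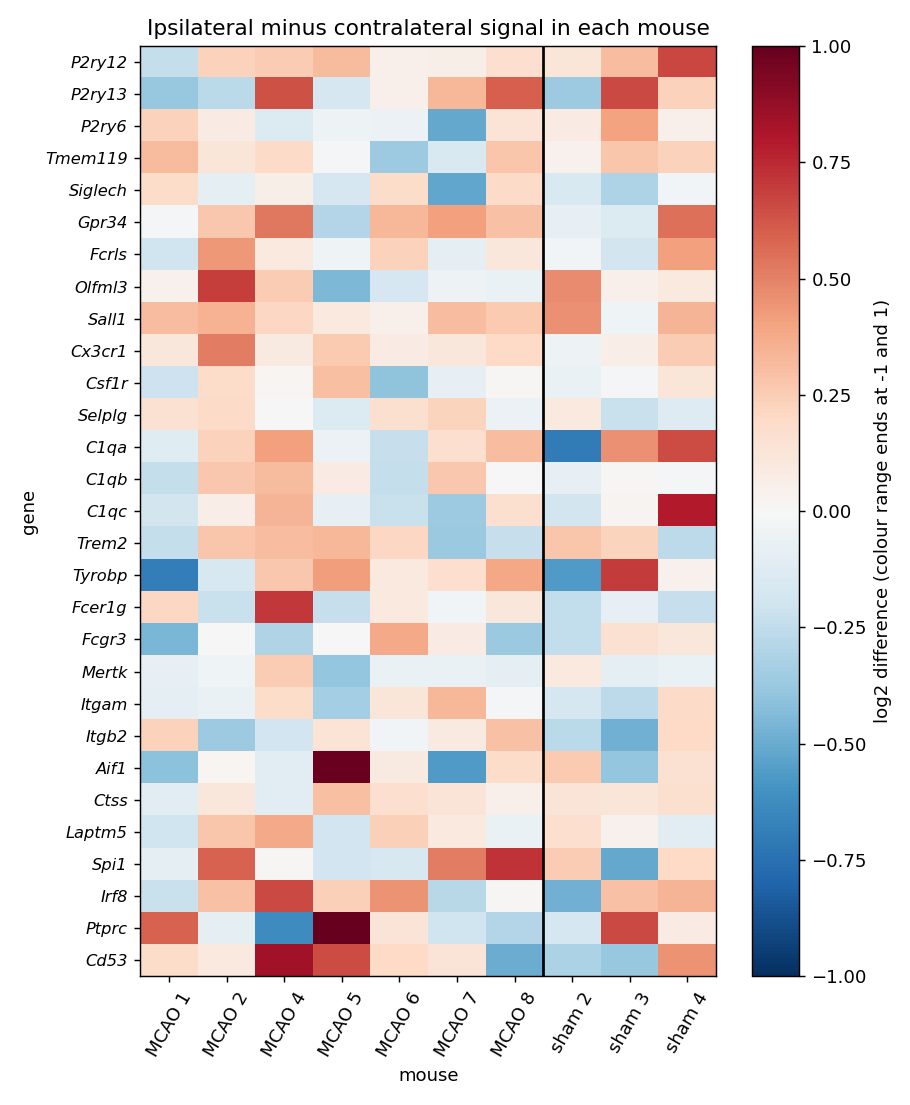
Ipsilateral minus contralateral log2 signal (colour, ending at -1 and 1) of the 29 microglial genes (rows) in each of the 7 MCAO and 3 sham mice (columns, divided by a black line). No mouse has 1 colour throughout: the number of genes higher ipsilaterally ranges from 11 of 29 in MCAO mouse 1 to 22 of 29 in MCAO mouse 4 and sham mouse 4.

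Single mice differed in the sign of the side difference. The median side difference over the 29 genes was lowest in MCAO mouse 1, at -0.1 with 11 of 29 genes higher ipsilaterally, and highest in MCAO mouse 4, at 0.21 with 22 of 29. Sham mouse 4, at 0.16 with 22 of 29, lay inside that range, as did sham mice 2 and 3 at -0.07 and 0.03. Over the 11 genes above background, MCAO mouse 2 was highest at 0.23 (9 of 11 higher) and MCAO mouse 1 lowest at -0.2 (2 of 11 higher). Over all probe sets the medians of these mice were 0.03 and -0.02.

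The 11 well-measured genes varied partly together from array to array. After the 4 group means were removed, the 55 pairs had a median Pearson r of 0.26 over the 20 arrays and 41 of 55 were above 0, while these genes had a median r of 0.05 with the 7349 other probe sets above background on all arrays. The closest pairs were Selplg and Fcgr3 (r = 0.8), Fcrls and C1qb (0.72) and P2ry12 and Fcrls (0.69). Fcrls carries the PU.1 core in the window printed above and P2ry12 none of the 3 motifs. Ctss and Mertk stood apart, with median r of -0.22 and -0.03 with the other 10 genes, and the lowest pair was Selplg and Ctss at -0.54. These are descriptions across arrays that share mice, tissue dissection and array processing. The mean deviation of the 11 genes from their group means was highest in the ipsilateral hemisphere of MCAO mouse 2 (0.29, 10 of 11 genes above the group mean) and lowest in that of MCAO mouse 5 (-0.23, 2 of 11), whose contralateral hemisphere was also low (-0.15). With all 24 arrays the median r was 0.83, a value that rests on the 4 arrays that stood apart.

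**Figure D4:**
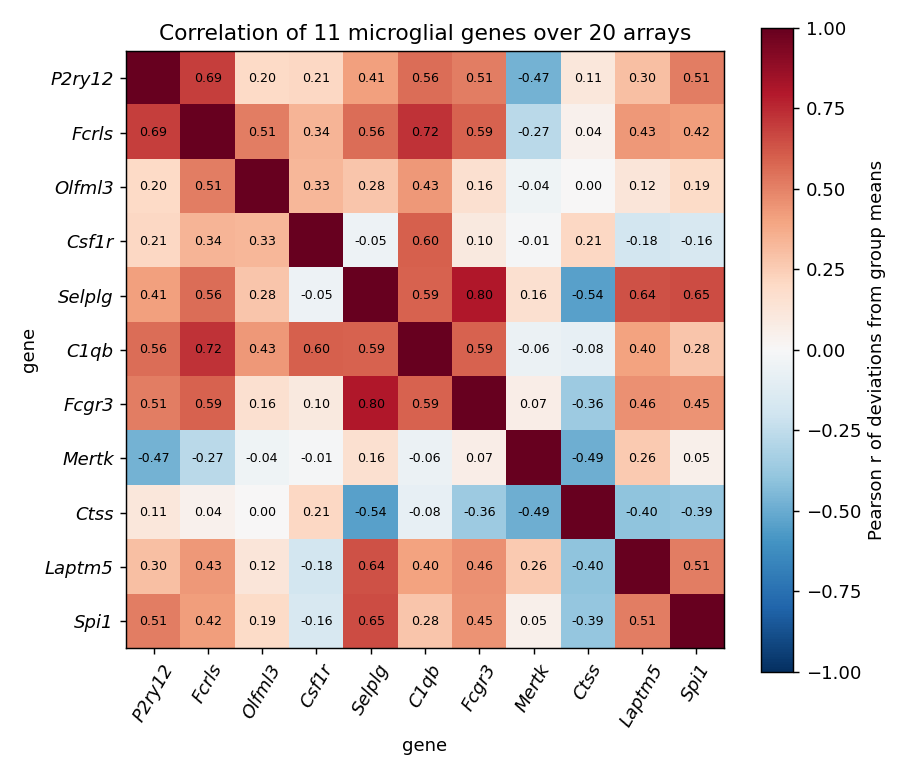
Pearson r (colour, and number in each cell) between the 11 microglial genes above background on all 20 arrays, computed from deviations from the 4 group means. Fcrls, C1qb, Selplg and Fcgr3 have median r of 0.45 to 0.49 with the other genes, and Ctss has the lowest, -0.22.

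Genes tied to microglial function that are not among the 31 showed where the arrays did register a response. Of 16 early inflammatory genes that microglia can make, 11 were above background on 0 arrays and 1 on all 20, so most were not measured. In limma, Ccl3 rose between MCAO hemispheres and between MCAO and sham ipsilateral hemispheres, Ccrl2 passed with a higher signal in the second of these, and 0 fell. Their medians were 0.24 (-0.24 to 2.46) and 0.41 (-0.21 to 3.18). Ccl3, a chemokine also known as MIP-1 alpha, was 5.81, 6.64 and 7.53 (lowest, median, highest) in MCAO ipsilateral and 3.45, 3.88 and 5.35 in MCAO contralateral hemispheres, and 3.28, 3.85 and 3.05 ipsilaterally and 3.74, 3.21 and 3.37 contralaterally in sham mice. Every MCAO ipsilateral value was above background and above every value of the other groups, none of which was above background. Ccl3 was at least 2.12-fold higher in MCAO ipsilateral than contralateral hemispheres (log2 difference 2.46 ± 0.22 SE, limma adjusted p = 0.00063, higher in 7 of 7 mice) and at least 1.99-fold higher than in sham ipsilateral hemispheres (3.18 ± 0.3, limma adjusted p = 9.5e-05). These folds are lower bounds because the dimmer values were raised to the background of their array. With all 24 arrays the comparison with sham mice did not pass (2.57, limma adjusted p = 0.37). The side difference of Ccl3 was larger in each MCAO mouse than in each sham mouse, as in 1.07% of all probe sets. The limma adjusted p was 0.29 and the exact permutation p 0.00833, the smallest these 10 mice allow. Ccl3 was singled out because it passed on these same arrays, so the permutation p is not separate support. No size is given for the difference between surgery groups, since 3 of its 4 groups were below background. Without MCAO mouse 6 the limma adjusted p was 0.015.

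Ccrl2, an atypical receptor that presents the chemoattractant chemerin, was 3.44, 4.2 and 4.61 in MCAO ipsilateral hemispheres and 2.85, 3.25 and 2.69 in sham ones. These groups did not overlap, as in 1.4% of all probe sets with MCAO higher. Ccrl2 was above background on 0 arrays, so no fold is given. Its means were 4.17 ± 0.36 (SD, n = 7) and 2.93 ± 0.29 (n = 3), with a limma adjusted p of 0.024. Between MCAO hemispheres its signal was higher ipsilaterally in 7 of 7 mice (0.17 to 1.35), as in 1.22% of all probe sets. The limma adjusted p was 0.22. In sham mice 2, 3 and 4 the side difference was -0.12, 0.88 and -0.19, overlapping the MCAO mice (exact permutation p = 0.183). Contralaterally the Ccrl2 signal was also higher in MCAO than in sham mice, by 0.77 ± 0.24 (SE). This did not pass (limma unadjusted p = 0.00733, where 4.59% of all probe sets were under 0.05). The ipsilateral call against sham mice was lost with all 24 arrays (limma adjusted p = 0.97) and with array weights (0.069). It was also lost on leaving out any of MCAO mice 1, 4, 6 and 7 (0.052 to 0.06), and without sham mouse 2 or 4 (0.16 and 0.15). RefSeq gives Ccrl2 3 promoters, of which 1 holds a kappaB match, printed here because Ccrl2 passed against sham mice; the promoter of Ccl3 holds none of the 3 motifs. The window of Ccrl2 is chr9:111057519-111057678 on the minus strand (GRCm38.p6), with the match in capitals.
Ccrl2: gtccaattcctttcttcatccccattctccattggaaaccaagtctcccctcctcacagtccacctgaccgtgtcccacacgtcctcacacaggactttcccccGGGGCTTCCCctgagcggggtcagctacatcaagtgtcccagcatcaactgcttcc

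Among 15 measured ligands, partners and complement components, 0 rose and 0 fell in any comparison in limma, with medians of 0.02 (-0.1 to 0.26) between MCAO hemispheres and 0.08 (-0.28 to 0.83) between MCAO and sham mice ipsilaterally. Csf1 and Il34, the ligands of Csf1r, differed by -0.03 (-0.23 to 0.17) and -0.04 (-0.27 to 0.18) between MCAO hemispheres, and Cx3cl1, the ligand of Cx3cr1, by 0.02 (-0.16 to 0.2). All 3 ligands were above background on every array. C3ar1, the receptor for complement fragment C3a, had the largest ipsilateral difference of this list between MCAO and sham mice, 0.83 ± 0.22, with a limma adjusted p of 0.3 and no array above background. Of 23 other microglial genes, 0 rose and 0 fell in any comparison. The 2 of smallest p between MCAO hemispheres were Slc2a5, a fructose transporter (0.39 ± 0.12, limma adjusted p = 0.43), and Cd84, an adhesion receptor (0.28 ± 0.09, adjusted p = 0.51). Both were below background on every array. Of 13 disease-associated microglia genes, which mark a later reactive state, 0 rose and 0 fell in any comparison, with a median of 0.06 (-0.33 to 0.17) between MCAO hemispheres. In that list Lyz2, which encodes lysozyme, differed by -0.33 ± 0.09 (adjusted p = 0.37) and Cst7, a cysteine protease inhibitor, by -0.76 ± 0.18 between MCAO and sham mice ipsilaterally (adjusted p = 0.2), both below background on every array.

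Several of the 29 genes are also expressed by blood-borne and border myeloid cells. Of 9 border macrophage markers 9 were above background on 0 arrays, as were 9 of 10 neutrophil, 9 of 10 lymphocyte and 5 of 7 monocyte markers. In each of these 4 lists 0 rose and 0 fell in any comparison in limma, and their medians between MCAO hemispheres were -0.06, -0.01, -0.02 and -0.05. Mrc1, which encodes the mannose receptor of border macrophages, was 3.7 ± 0.41 (SD, n = 7) in MCAO and 4.26 ± 0.14 (n = 3) in sham ipsilateral hemispheres. Cd163, a haemoglobin scavenger receptor of the same cells, was 2.95 ± 0.3 (n = 7) and 3.53 ± 0.43 (n = 3). These signals differed by -0.57 ± 0.21 (SE, limma adjusted p = 0.58) and -0.58 ± 0.21 (limma adjusted p = 0.54). Between MCAO hemispheres Cd163 differed by -0.55 ± 0.11 (limma adjusted p = 0.13). Both genes were below background on every array. Of the 9 border macrophage markers, 2 were above 0 between MCAO hemispheres and 2 between MCAO and sham ipsilateral hemispheres. These were not the same 2 genes. Of the 10 neutrophil markers 5 were above 0 between MCAO hemispheres. S100a8, a neutrophil calcium-binding protein, was 2.23 ± 0.38 (n = 7) in MCAO ipsilateral and 1.79 ± 0.29 (n = 7) in MCAO contralateral hemispheres, below background on every array, with a signal difference of 0.43 ± 0.1 and a limma adjusted p of 0.19. Lcn2, an iron-binding neutrophil protein, went the other way at -0.4 ± 0.21 (adjusted p = 0.79) and was above background on 6 of 20 arrays. In the lists of neuronal, astrocytic, oligodendrocytic and endothelial markers, too, 0 rose and 0 fell in any comparison, with medians of 0.03, 0.05, 0.05 and 0 between MCAO hemispheres. Of the erythroid list only Alas2 was measured, at 0.21 between MCAO hemispheres with a limma adjusted p of 0.83 and no array above background.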

How the data were processed

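Per the labels, RNA of 24 hemispheres was labelled for whole-transcript Affymetrix arrays. The deposited table holds the authors' log2 signals per probe set; the submitters' processing notes name Affymetrix Expression Console as the tool. The version, background correction, normalization and genome build were not given in the sources used here. That the scale is log2 is inferred from the values, so folds rest on it. Of 29129 probe sets, 6923 controls were left out of tests. Members and lists were chosen with earlier results of these data known.

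Arrays with a median correlation of at least 0.9 with the others were used (20), with all 24 as an alternative. limma 3.58.1 in R 4.3.3 (lmFit, eBayes) compared hemispheres with mouse as a fixed block and surgery groups on 1 side without; Benjamini-Hochberg ran over 22206 probe sets (threshold 0.05). Hemispheres of a mouse share an animal per the labels, and their deviations correlated at 0.11 to 0.31, against a median of -0.04 between mice. The fits were tested on simulated data. Values by group are given, per role, for the 3 genes of greatest absolute difference in 3 comparisons; of other lists, up to 4 genes that passed or, if none, the 2 of smallest p were eligible. Alternatives were all arrays, eBayes settings, centring, quantile normalization, a filter on dim probe sets, the mean of a gene's probe sets, array weights, the mouse block, fewer groups in a fit and leaving out each mouse. Figures used matplotlib 3.10.9.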

Additional observations from a re-analysis of the deposited data

Results flagged for a closer look

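Of 93 groups of 7 values tested, 6 held a highest or lowest value far from the others, and chance gives about 1 in 20. Fcrls was 7.57 in the contralateral hemisphere of MCAO mouse 1, with 7.25 the next of that group, and Laptm5 was 6.82 in the contralateral hemisphere of MCAO mouse 4, with 7.11 the next. Spi1 was 7 in the ipsilateral hemisphere of MCAO mouse 2, with 6.61 the next, and the side difference of Cx3cr1 in the same mouse was 0.51, with 0.26 the next. Both belong to the mouse whose ipsilateral hemisphere had the highest mean deviation of the 11 well-measured genes. Spi1 is itself among those 11, so its value enters that mean. Below background, Ptprc was 4.53 in the contralateral hemisphere of MCAO mouse 4, with 3.68 the next, and Ccrl2 was 3.44 in the ipsilateral hemisphere of MCAO mouse 8, with 4.11 the next.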

How the results depend on the processing

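In 95 recomputed counts of microglial genes past the threshold, over 20 alternatives, all were 0, and leaving out each mouse gave 0 to 0 in each of the 5 comparisons. Over 2700 recomputed differences of single genes 0 passed and 230 changed sign, none of them a call; the smallest adjusted p was 0.28 (limma), for Gpr34 (0.75) and Cd53 (0.49) between ipsilateral hemispheres without sham mouse 4. Leaving out each mouse moved the median of the 29 to 0.04 to 0.1 between MCAO hemispheres, -0.04 to 0.11 between sham hemispheres, -0.01 to 0.06 for the difference of these, 0.02 to 0.1 between ipsilateral and -0.01 to 0.07 between contralateral hemispheres. Without the replicate block for mouse, 0 microglial genes and 29 probe sets in all passed between MCAO hemispheres, and pairing changed no call on the 29 genes. With the 99th percentile of the negative controls as background, 0 genes were above it on all 20 arrays instead of 11. With all 24 arrays the exact permutation test gave 2 of 29 genes with an unadjusted p under 0.05 (P2ry12, 0.0222, and Itgb2, 0.0343), near the 5.61% of all probe sets that did, and the median correlation of the 11 genes was 0.83, an alternative chosen after seeing the data. For Ccl3 the difference between surgery groups in the side difference passed with trend and robust eBayes (limma adjusted p = 0.0029) and among probe sets above background on at least 3 arrays (adjusted p = 0.024). The 3 sham mice and signals near background limit what could be detected.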
